A study of Mus musculus with 13 samples.

Results

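The p53 family and its direct targets were followed through mouse NUT carcinoma. The 10 genes, listed by symbol as the 3 family members Trp53, Trp63 and Trp73 and 7 established p53 targets or regulators, were taken from the 55332 genes with values, and all 10 passed the filter on low counts in every comparison. RNA came from 13 mNC tumors. The oral mucosa gave 4 Sox2 WT tumors (KRT14-Cre; NCT+/-) and 2 Sox2 KO tumors, which the sample labels write as KRT4Cre; NCT+/-; Sox2fl/fl although the study's text names KRT14-Cre for them. The pancreas gave 4 WT tumors (Pdx1-Cre; NCT+/-) and 3 KO tumors (Pdx1-Cre; NCT+/-; Sox2fl; fl). In every tumor, controls included, Cre acted on the NCT allele by way of a rare chromosomal translocation, and the allele also carries a tdTomato-Luc2 reporter behind Nutm1. Each tissue was reached by its own Cre driver, so that tissue and driver cannot be told apart, and ages were not given in the sources used here. Nothing states that the tumors came from separate mice, so that the p-values measure the spread between these tumors only.

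The p53 protein is a transcription factor that responds to DNA damage and oncogenic stress by halting the cell cycle or triggering cell death. Its relatives p63 and p73 bind much the same DNA element but serve development as well, p63 as the master regulator of basal cells in stratified epithelium and p73 in multiciliated cells and neurons. MDM2 and MDM4 hold p53 in check, and because Mdm2 is itself a p53 target the pair forms a feedback loop. In squamous carcinomas Trp63 marks the basal-like tumor cell.

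Libraries held 11735314 to 120482828 estimated counts, with the oral KO tumors below all oral WT tumors and the pancreatic KO tumors above all pancreatic WT tumors. Sox2 had 410 to 1487 counts in the WT tumors and 0 to 2 in the KO tumors, and Nutm1 had at least 413 counts in every tumor. The coding share of a library was 59.5% in oral KO tumor 1 and 84.5% to 91.7% in the other 12 tumors. Levels are given as CPM, counts scaled to the size of the library. The sum of 10 skeletal muscle markers was 2837 and 5130 CPM in oral KO tumors, with no marker at 0, against 14.9 to 508 in the oral WT tumors and at most 12.1 in the pancreatic tumors. The 8 epithelial markers summed to 425 and 797 CPM in the oral KO tumors, 615 to 1266 in the oral WT tumors and 1676 to 2482 in the pancreatic tumors, so that epithelial markers were present in every tumor. In bulk tumor RNA, fewer cells of a type and less RNA per cell cannot be told apart.

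**Figure D1:**
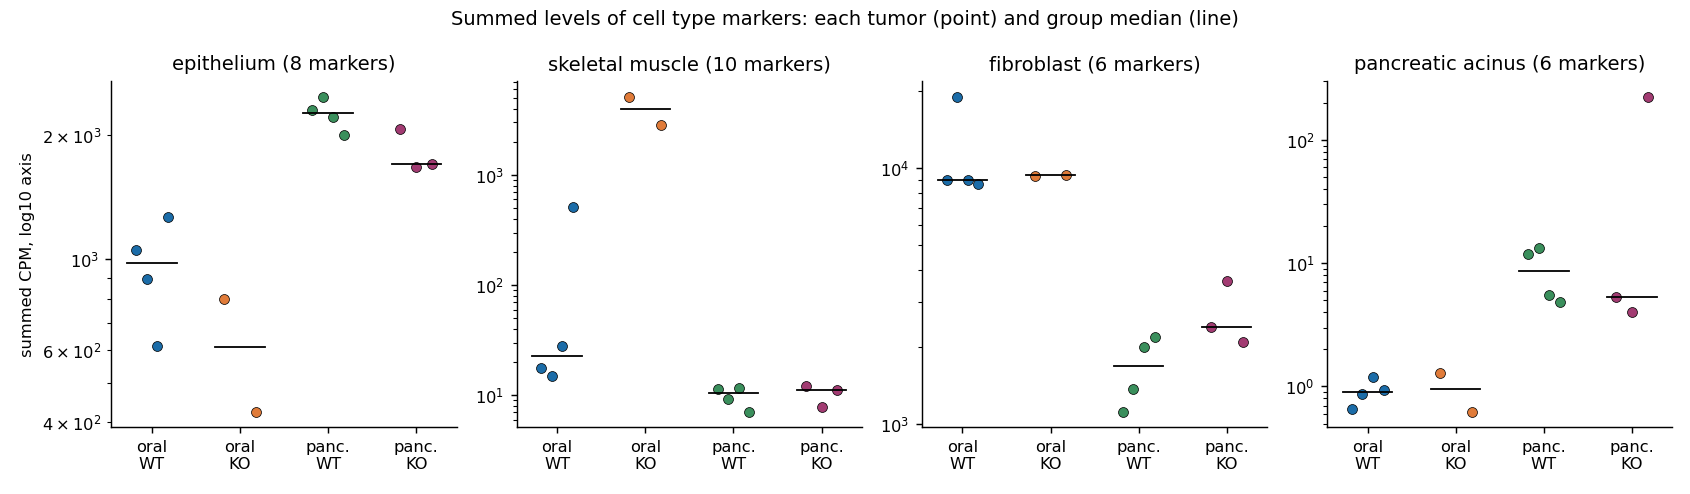
Summed CPM (log10 axis) of the markers of epithelium, skeletal muscle, fibroblast and pancreatic acinus in each tumor (points) by tissue and genotype, with group medians (lines). Muscle markers stood between 2837 and 5130 CPM in the oral KO tumors, and 1 pancreatic KO tumor had 224 CPM of acinar markers.

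RefSeq gave 13 promoters for 8 of the 10 genes. The p53 element is built from pairs of a self-complementary 10-base consensus. Only single matches to this consensus are marked here, whether or not a second one adjoins. In the 250 bases before each start, searched on both strands, 5 of the 13 promoters held a match, those of Bax, Ccng1, Mdm2, Trp53 and the outer start of Cdkn1a, against 7.13% of all 32851 promoters. Every match is a description of letters only. Sequences are written 5′ to 3′ on the strand of the gene, with the matches in capitals.
Cdkn1a, chr17:29090866-29090975, plus: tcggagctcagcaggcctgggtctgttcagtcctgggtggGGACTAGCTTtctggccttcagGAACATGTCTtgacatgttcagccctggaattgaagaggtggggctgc
Bax, chr7:45467050-45467139, minus: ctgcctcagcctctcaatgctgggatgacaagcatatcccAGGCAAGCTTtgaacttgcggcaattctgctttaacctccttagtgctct
Ccng1, chr11:40755422-40755511, minus: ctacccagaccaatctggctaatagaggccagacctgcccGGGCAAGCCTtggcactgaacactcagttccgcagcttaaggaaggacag
Mdm2, chr10:117710895-117710984, minus: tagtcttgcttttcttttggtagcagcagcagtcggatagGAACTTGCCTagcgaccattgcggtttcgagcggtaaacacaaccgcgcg
Trp53, chr11:69580256-69580333, plus: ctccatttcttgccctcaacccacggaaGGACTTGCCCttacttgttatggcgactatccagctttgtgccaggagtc

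Trp73 has an outer promoter, which makes the full-length forms, and an inner promoter, which makes forms without the transactivation domain. The outer window held 31 CG pairs in 250 bases and the inner window 6, where the median of all promoters was 6. The 150 bases before the inner start are shown with CG pairs in capitals, since Trp73 carried the largest difference of the 10 genes and the deposited counts, summed per gene, do not separate the 2 starts.
Trp73, chr4:154097174-154097323, minus: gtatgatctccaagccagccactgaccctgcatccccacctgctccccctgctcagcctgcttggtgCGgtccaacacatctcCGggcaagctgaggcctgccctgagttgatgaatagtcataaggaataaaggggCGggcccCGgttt

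Levels were first set in order per kilobase of exon, since counts alone favor long genes. Perp, a desmosomal membrane protein and death effector of p53 that p63 also drives in stratified epithelium, stood highest, at 549 ± 222 CPM per kilobase in the oral WT tumors (SD, n = 4) and 981 ± 164 in the pancreatic WT tumors (SD, n = 4). Trp63 followed at 104 ± 16.4 and 97.2 ± 20.9, and the ranges of Perp, Trp63 and the next gene, Ccng1, did not overlap in either tissue. In the oral WT tumors each neighbor from Ccng1 (40.8) through Cdkn1a (29.8), Trp53 (25.2), Bax (22.6), Trp73 (13.4), Mdm2 (7.72) and Mdm4 (6.92) to Bbc3 (5.39 CPM per kilobase) overlapped the next. In the pancreatic WT tumors Ccng1 (60.1) overlapped Cdkn1a (56.6) and Bax (20.2) overlapped Trp53 (19.6), whereas Mdm2 (12.2), Mdm4 (6.74), Bbc3 (2.68) and Trp73 (0.537 CPM per kilobase) were each apart from the next. With the longest coding transcript as the length, Trp53 moved up to the third place in the oral WT tumors (54.7 CPM per kilobase), and Trp63 overlapped the next gene in the pancreatic ones.

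**Figure D2:**
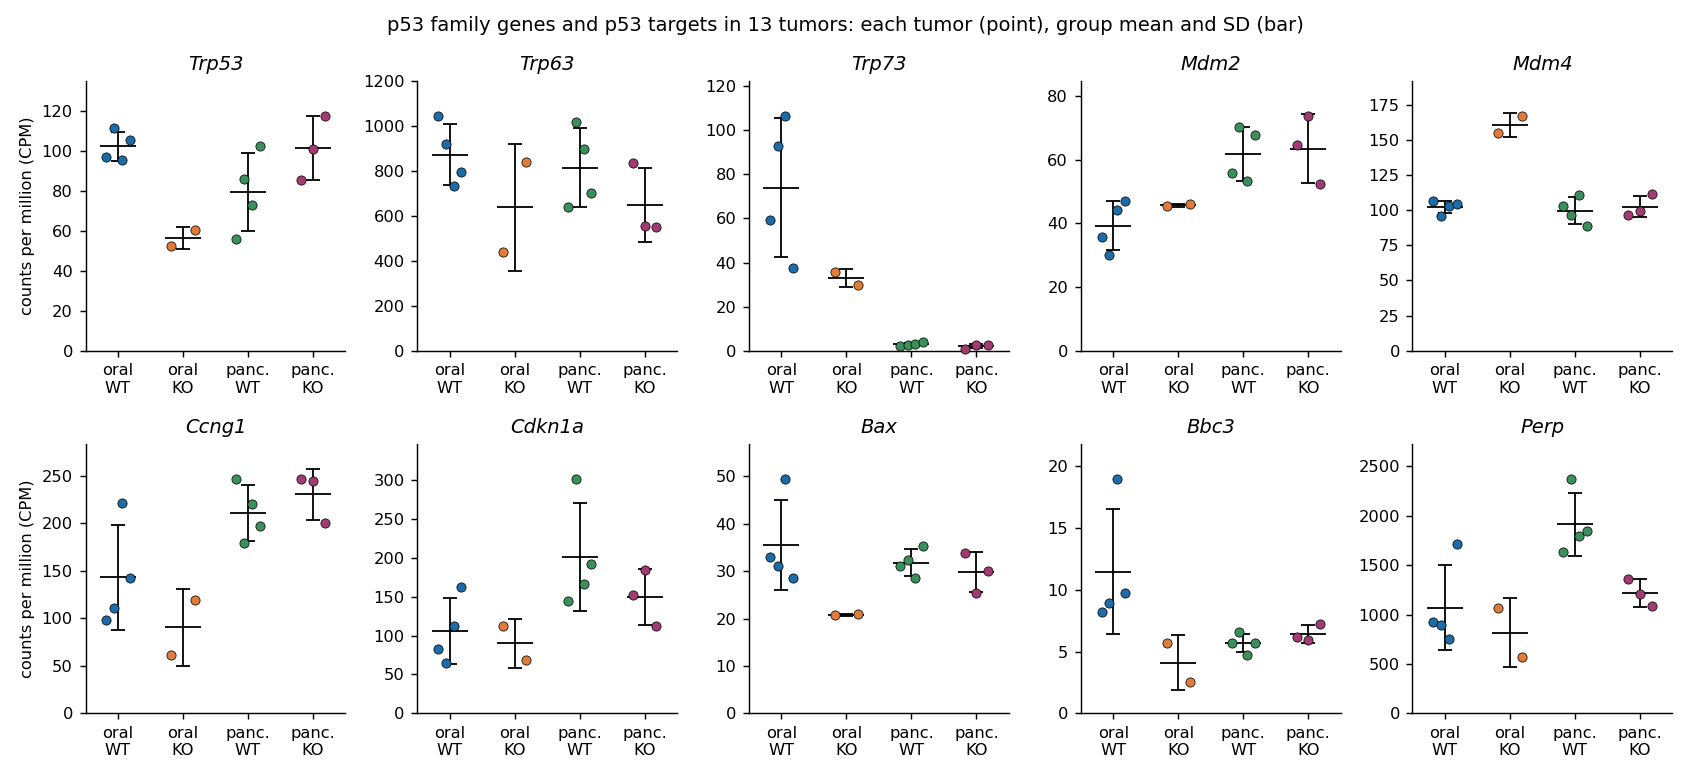
CPM of each of the 10 genes in every tumor (points) by tissue and genotype, with group means and SD (bars), each panel on its own linear axis from 0. Trp73 lies between 29.9 and 106 CPM in the oral tumors and at most 3.94 in the pancreatic ones, while Trp63 overlaps across all 4 groups.

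Among the family members, Trp63 (chr16:25683763-25892102, plus strand, GRCm38 as for all positions below) had overlapping levels in both tissues. It measured 1044, 920, 733 and 798 CPM in the oral WT tumors and 641, 1020, 900 and 701 CPM in the pancreatic WT tumors. The KO tumors had 440 and 840 CPM in the oral mucosa and 837, 555 and 552 CPM in the pancreas. All 4 groups overlapped. The difference of oral from pancreatic WT was 0.10 (SE 0.19, log2, adjusted p = 0.748), that of KO from WT was -0.38 (SE 0.30, adjusted p = 0.392) in the oral mucosa and -0.32 (SE 0.22, adjusted p = 0.525) in the pancreas. Relative to the summed epithelial markers of the same tumor, the KO minus WT difference of Trp63 was 0.16 in the oral mucosa (exact permutation test, two-sided, p = 0.933, smallest possible p 0.0667) and -0.02 in the pancreas (exact permutation p = 0.914, smallest possible p 0.0286, 4 tests, both adjusted to 0.933). The 5 protein-coding genes whose centred log2 CPM lay closest to that of Trp63 over the 13 tumors, of 14153 genes searched, were Slc39a6, a zinc transporter, Impad1, Slc25a26, Slfn9 and Gpatch11, with root mean square differences of 0.19 to 0.23 in log2. Without oral KO tumor 1, 3 of these 5 were again among the closest.

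Trp73 (chr4:154056253-154140208, minus) separated the tissues. The oral WT tumors had 59.3, 93.0, 106 and 37.5 CPM and the oral KO tumors 35.8 and 29.9 CPM. The pancreatic WT tumors had 2.34, 2.66, 2.94 and 3.94 CPM and the pancreatic KO tumors 0.874, 2.76 and 2.79 CPM, from 89 to 322 counts. No oral tumor overlapped a pancreatic tumor, and the oral KO tumors lay below all 4 oral WT tumors. Oral WT exceeded pancreatic WT 24.9-fold (4.64 log2, SE 0.37, adjusted p = 0.000434), and this held in all 9 alternatives and without each of the 8 tumors in turn. The oral KO minus WT difference, -1.09 (SE 0.44), had an adjusted p of 0.124, or 0.0389 without oral WT tumor 4, the lowest of its group. In the pancreas the KO minus WT difference was -0.46 (SE 0.43, adjusted p = 0.656), and the oral minus the pancreatic change was -0.70 (SE 0.62, adjusted p = 0.453).

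Trp53 (chr11:69580359-69591873, plus) was lower in the oral KO tumors. The oral WT tumors had 96.7, 111, 95.4 and 105 CPM and the oral KO tumors 52.5 and 60.4 CPM, with no overlap. The pancreatic WT tumors spread from 56.1 through 73.0 and 85.9 to 102 CPM, and the pancreatic KO tumors had 85.4, 101 and 117 CPM, overlapping them. Of the 31-base sequences of Trp53, 10.1% also occur in other genes, of which its pseudogene Trp53-ps shares the most. Part of the signal could thus be split between these genes. The oral difference was -0.78 (SE 0.17, adjusted p = 0.0304, 1.71-fold lower), and the pancreatic one 0.37 (SE 0.21, adjusted p = 0.441). The difference between the 2 tissues' changes was -1.21 (SE 0.28, adjusted p = 0.0189). The oral call was lost without oral WT tumor 1 (adjusted p = 0.0661), oral WT tumor 2 (0.0910), oral KO tumor 1 (0.117) or oral KO tumor 2 (0.104), and with protein-coding genes alone (adjusted p = 0.0915), with the change between -0.84 and -0.59 in these fits. The difference between tissues kept its call in all 8 alternatives and without each tumor except oral KO tumor 1 (adjusted p = 0.0587). Several other measures moved with the fall. Beside the muscle markers (2837 and 5130 against 14.9 to 508 CPM), the coding share was 59.5% and 84.5% in the oral KO against 88.5% to 90.0% in the oral WT tumors. Rn7s1 and Rn7s2, noncoding RNA genes of the signal recognition particle, took 16.6% and 4.67% of the counts against 2.14% to 2.49%. The sum of the 6 leukocyte markers, none at 0 and 4 of them lower, was 122 and 146 CPM against 182 to 347 CPM. The libraries held 11735314 and 20432164 estimated counts against 29394257 to 40420228. None of these measures overlapped between the groups, and their part in the fall was not tested.

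Of the feedback regulators, Mdm4 (chr1:132959484-133030561, minus) rose where Trp53 fell. MDM4 binds the transactivation domain of p53 and blocks it. The oral KO tumors had 155 and 167 CPM, above the 106, 95.9, 103 and 104 CPM of the oral WT tumors. The pancreatic WT tumors had 103, 96.3, 111 and 88.6 CPM and the pancreatic KO tumors 97.0, 99.4 and 111 CPM. Both oral KO tumors stood above all other 11 tumors, which lay between 88.6 and 111 CPM. The oral rise was 0.73 (SE 0.15, adjusted p = 0.0296, 1.66-fold), the pancreatic difference 0.05 (SE 0.11, adjusted p = 0.862) and the difference between them 0.61 (SE 0.16, adjusted p = 0.0297). The oral call was lost without oral WT tumor 1 (adjusted p = 0.0673), oral WT tumor 2 (0.0924), oral KO tumor 1 (0.0838) or oral KO tumor 2 (0.109), with protein-coding genes alone (adjusted p = 0.0595) and without a count filter (adjusted p = 0.0546). The difference between tissues lost its call without any of oral WT tumor 2, oral KO tumors 1 and 2, pancreatic WT tumors 1 and 3 and pancreatic KO tumors 1 and 2 (adjusted p = 0.0554 to 0.0786), and without a count filter (0.123). Of its 31-base sequences 13.6% also occur in other genes, of which Mdm4-ps shares the most. The same measures moved with this rise as with the fall of Trp53, and their part in it was not tested.

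Mdm2 (chr10:117688875-117710758, minus), the ubiquitin ligase that sends p53 to degradation, differed by tissue. The oral WT tumors had 35.8, 30.2, 44.1 and 46.9 CPM and the oral KO tumors 45.3 and 46.1 CPM. In the pancreas the WT tumors had 55.7, 70.1, 53.3 and 67.9 CPM and the KO tumors 64.5, 73.7 and 52.3 CPM. Every oral tumor lay below every pancreatic tumor. Oral WT was 1.57-fold lower than pancreatic WT (-0.65, SE 0.17, adjusted p = 0.0223), a call lost without oral WT tumor 1 (adjusted p = 0.0556), oral WT tumor 2 (0.0531), pancreatic WT tumor 2 (0.0630) or pancreatic WT tumor 4 (0.0691). The genotype differences were 0.30 (SE 0.23, adjusted p = 0.385) in the oral mucosa and 0.05 (SE 0.15, adjusted p = 0.910) in the pancreas. Ccng1 (chr11:40748552-40755311, minus), a cyclin G that recruits phosphatase to MDM2, ranged from 98.9 to 222 CPM in the oral WT, 61.9 to 119 in the oral KO, 179 to 247 in the pancreatic WT and 200 to 247 CPM in the pancreatic KO tumors. Its adjusted p was 0.327 and 0.677 for the genotype in the oral mucosa and pancreas and 0.136 for the tissue in WT, or 0.0131 without oral WT tumor 3, the highest of its group.

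Among the effectors, Cdkn1a (chr17:29090976-29100727, plus), which encodes the p21 inhibitor of cyclin-dependent kinases and is the classic readout of p53 activity, did not pass the test for genotype in either tissue. The oral WT tumors had 83.0, 65.3, 113 and 163 CPM and the oral KO tumors 112 and 68.1 CPM, inside that range. The pancreatic WT tumors had 145, 301, 167 and 192 CPM and the pancreatic KO tumors 151, 184 and 113 CPM. The KO minus WT difference was -0.15 (SE 0.40, adjusted p = 0.818) in the oral mucosa and -0.42 (SE 0.28, adjusted p = 0.508) in the pancreas. The difference of oral from pancreatic WT was -0.92 (SE 0.32, adjusted p = 0.0679), and the test was passed without oral WT tumor 4 (adjusted p = 0.0164) and in DESeq2 (adjusted p = 0.0361). The genes most like Cdkn1a over the 13 tumors were Mxi1, an antagonist of MYC, Itpkc, Ccdc120, Fam160a1 and the immediate early gene Ier2, at root mean square differences of 0.28 to 0.29 in log2, and 2 of these 5 were among the closest without oral KO tumor 1.

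Bbc3 (chr7:16308393-16318205, plus) encodes PUMA, a BH3-only protein that triggers mitochondrial cell death. It measured 8.18, 8.92, 19.0 and 9.74 CPM in the oral WT tumors and 5.66 and 2.53 CPM in the oral KO tumors, from 57 and 65 counts. In the pancreas the WT tumors had 5.69, 6.59, 4.74 and 5.72 CPM and the KO tumors 6.19, 5.90 and 7.26 CPM. The oral WT tumors stood above all other groups without overlap, with oral WT tumor 3 highest. Oral WT exceeded pancreatic WT 2.01-fold (1.01, SE 0.29, adjusted p = 0.0349), a call lost without pancreatic WT tumors 1 (adjusted p = 0.0781), 2 (0.0592), 3 (0.0962) or 4 (0.0706). The oral KO tumors were at -1.42 (SE 0.53, adjusted p = 0.107, or 0.0276 in DESeq2) and the pancreatic ones at 0.19 (SE 0.20, adjusted p = 0.697), and the difference between these changes was -1.68 (SE 0.52, adjusted p = 0.0463). Leaving out 1 tumor moved the oral difference between -2.12 (without oral KO tumor 1) and -0.91 (without oral KO tumor 2), and the difference between the changes from -2.41 to -1.19. The call of the latter was kept without oral WT tumor 1, oral WT tumor 4 or oral KO tumor 1, and was lost without any of the other 10 tumors (adjusted p = 0.0525 to 0.174), the largest p coming without oral KO tumor 2, with counts thinned to the smallest library (0.215), with protein-coding genes alone (0.0939) and with at least 10 counts asked of every tumor (0.0610).

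Bax (chr7:45461697-45466898, minus), the pore-forming death effector, measured 20.6 and 20.9 CPM in the oral KO tumors and 28.6 to 49.4 CPM in the oral WT tumors, with no overlap, and 25.4 to 35.4 CPM in the 7 pancreatic tumors. Its oral difference of -0.70 (SE 0.28) had an adjusted p of 0.124, or 0.0208 in 1 fit of all 13 tumors. Of its 31-base sequences 11.1% also occur in other genes, of which the overlapping gene model Gm45808 shares the most. The pancreatic difference was -0.09 (SE 0.14, adjusted p = 0.809). Perp (chr10:18845020-18857073, plus) measured 925, 891, 757 and 1711 CPM in the oral WT tumors and 1068 and 569 CPM in the oral KO tumors. The pancreatic WT tumors had 1637, 2374, 1801 and 1844 CPM and the pancreatic KO tumors 1362, 1207 and 1085 CPM, below all 4 of them. The pancreatic KO minus WT difference was -0.64 (SE 0.17, adjusted p = 0.129, 1.56-fold lower), and in DESeq2 it passed the test (adjusted p = 0.0133). Relative to the epithelial markers it was -0.33 (exact permutation p = 0.0857, adjusted p = 0.343), and the marker sum itself was 1676 to 2075 CPM in the pancreatic KO and 2002 to 2482 CPM in the pancreatic WT tumors. The sum of the 5 squamous markers, 4 of them lower, moved with Perp. It was 2884 to 5016 CPM in the pancreatic KO and 5323 to 8223 CPM in the pancreatic WT tumors, without overlap. Relative to this sum the Perp difference was -0.035. In the oral mucosa the Perp difference was -0.30 (SE 0.42, adjusted p = 0.639) and, relative to the epithelial markers, 0.29 (exact permutation p = 0.267, adjusted p = 0.533). Oral WT was 1.78-fold below pancreatic WT (-0.84, SE 0.27, adjusted p = 0.0497), a call past the threshold in 3 of 9 alternatives, which remained without oral WT tumor 4 and was lost without oral WT tumors 1 (adjusted p = 0.110), 2 (0.122) or 3 (0.103) or pancreatic WT tumors 1 (0.0716), 2 (0.123), 3 (0.0930) or 4 (0.0892).

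**Figure D3:**
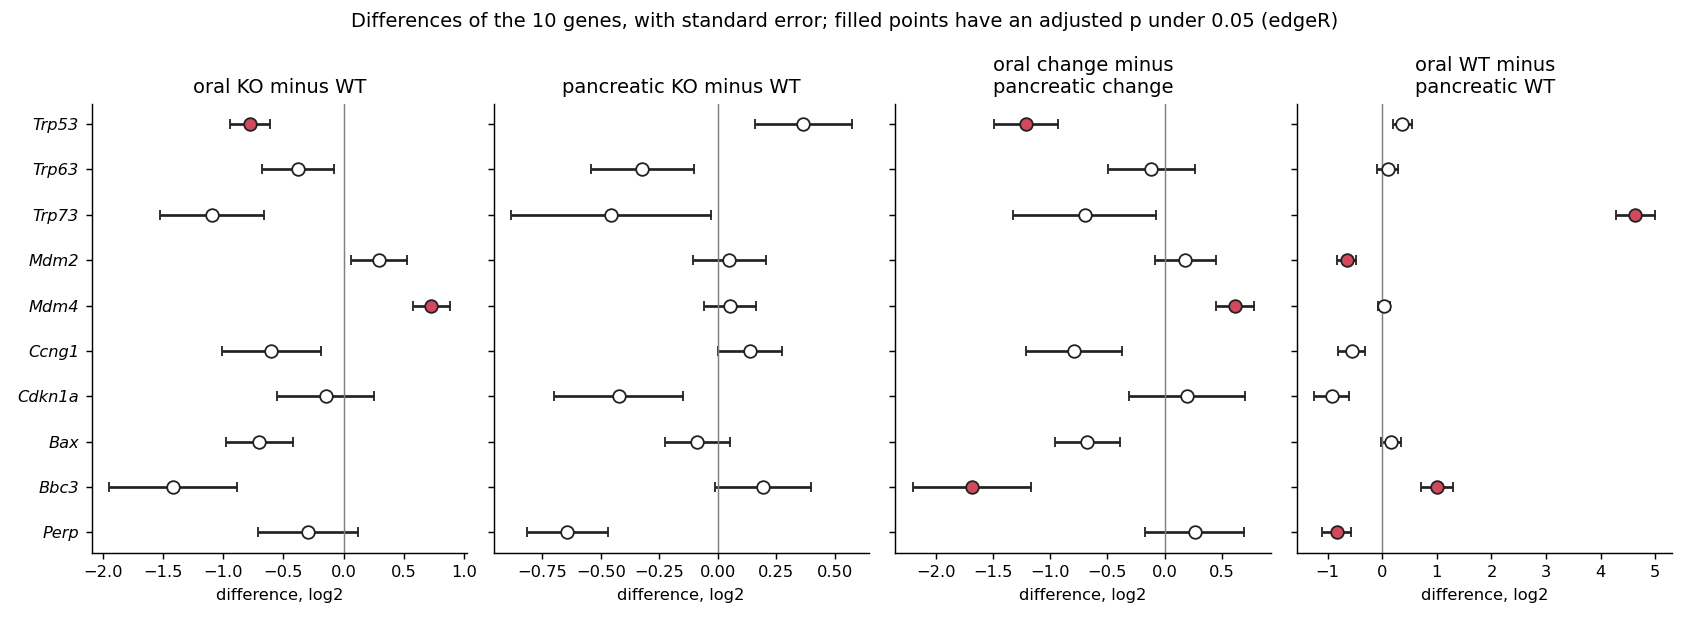
Log2 differences of the 10 genes with standard errors for KO minus WT in each tissue, for the oral minus the pancreatic change, and for oral minus pancreatic WT tumors; filled points have an adjusted p under 0.05 in edgeR. Trp73 reaches 4.64 between the WT tissues, while Trp53 and Mdm4 lie on opposite sides of 0 in the oral mucosa.

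The counts were read against the whole table. In the oral mucosa 2 of the 10 genes had an adjusted p under 0.05, 1 up and 1 down, where 13.8% of all 22342 genes tested did (9.20% up and 4.58% down). With protein-coding genes alone 27 genes passed there, 0 of the 10 among them. None passed as a DEG (adjusted p under 0.05 and absolute log2 fold change above 1, 11.7% of genes) in edgeR. In DESeq2 1 did, Bbc3, where 4004 of the 22342 genes tested did. Of the 10 genes, 5 were at an unadjusted p under 0.05 in edgeR, against 35.4% of all genes. In 5 genes the groups did not overlap, where 48.0% of all genes did not. The median change of the 10 was -0.49 and that of all genes -0.0030, and with protein-coding genes alone the medians were -0.29 and -0.02. In the pancreas 0 of 10 genes had an adjusted p under 0.05 in edgeR and 1, Perp, in DESeq2, where 0.706% of all genes passed in edgeR (0.629% as DEGs) and 6.94% in DESeq2. At an unadjusted p under 0.05 stood 1 of 10, against 15.9% of all genes. Groups were apart in 1 gene, Perp, against 15.6% of all genes, and the medians were -0.02 and 0.02.

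The change differed between tissues in 3 of 10 genes, 1 up and 2 down, where 15.3% of all genes did (7.71% up and 7.62% down), and 2, Trp53 and Bbc3, were past the fold limit, against 12.3% of all genes. At an unadjusted p under 0.05 stood 4 of 10, against 34.0% of all genes. The medians were -0.40 for the 10 genes and -0.03 for all genes, or -0.20 and -0.08 with protein-coding genes alone. Between the WT tissues 4 of 10 genes passed, Trp73 and Bbc3 higher and Mdm2 and Perp lower in the oral mucosa, where 23.7% of all genes did (12.1% up and 11.6% down). The DEGs were Trp73 and Bbc3 (16.5% of all genes), and 3 genes did not overlap between the groups against 27.9% of all genes. At an unadjusted p under 0.05 stood 5 of 10, against 36.8% of all genes. The medians were 0.07 and 0.0046. The tissues also differed in stroma, with fibroblast markers at 8662 to 19001 CPM in the oral WT and 1118 to 2198 CPM in the pancreatic WT tumors, and the part of stroma in these differences was not tested.

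The other genes of the pathway were read from lists of 81 genes. In the oral mucosa 13.8% of all genes tested passed in edgeR, and 35.4% stood at an unadjusted p under 0.05. Of 30 further p53 targets in the oral KO tumors, 29 were tested and 1 passed, Xpc, a DNA damage sensor of nucleotide excision repair, which fell by 0.96 on the log2 scale (SE 0.21, adjusted p = 0.0318), from 23.5 to 26.3 CPM in the WT tumors to 11.3 and 13.1 CPM. In DESeq2, 3 of them passed, where 23.2% of all genes did. By list, the medians were -0.62 for 10 death genes, -0.49 for 9 arrest and growth genes and -0.29 for 10 repair and metabolism genes, against -0.0030 over all genes, and 24 of the 29 were below 0. The share of all genes below 0 was not counted, but their median of -0.0030 lies just below 0. The list medians here come from the fit of all genes. With protein-coding genes alone the median of the 10 genes moved from -0.49 to -0.29, and the lists were not read in that fit. Of 19 p53 regulators 1 passed, Atr, the kinase that signals stalled replication forks, which rose by 0.71 (SE 0.16, adjusted p = 0.0321), and the list's median was -0.07. Of 20 p63 targets none passed in edgeR and 2 in DESeq2, with 2 at an unadjusted p under 0.05 and a median of -0.03. Among 12 genes that p21 represses through the DREAM complex none passed in edgeR and 1 in DESeq2, with 2 at an unadjusted p under 0.05, 9 below 0 and a median of -0.69. In the pancreatic KO tumors none of the 81 genes passed in edgeR and 5 in DESeq2, where 6.94% of all genes passed in DESeq2, with medians of -0.02, -0.44 and 0.11 for the p53 target lists in the same order, -0.04 for the regulators, -0.02 for the p63 targets and 0.02 for the DREAM genes. There, 9 of the 30 p53 targets, 2 regulators, 7 p63 targets and 0 DREAM genes were at an unadjusted p under 0.05, as were 15.9% of all genes.

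**Figure D4:**
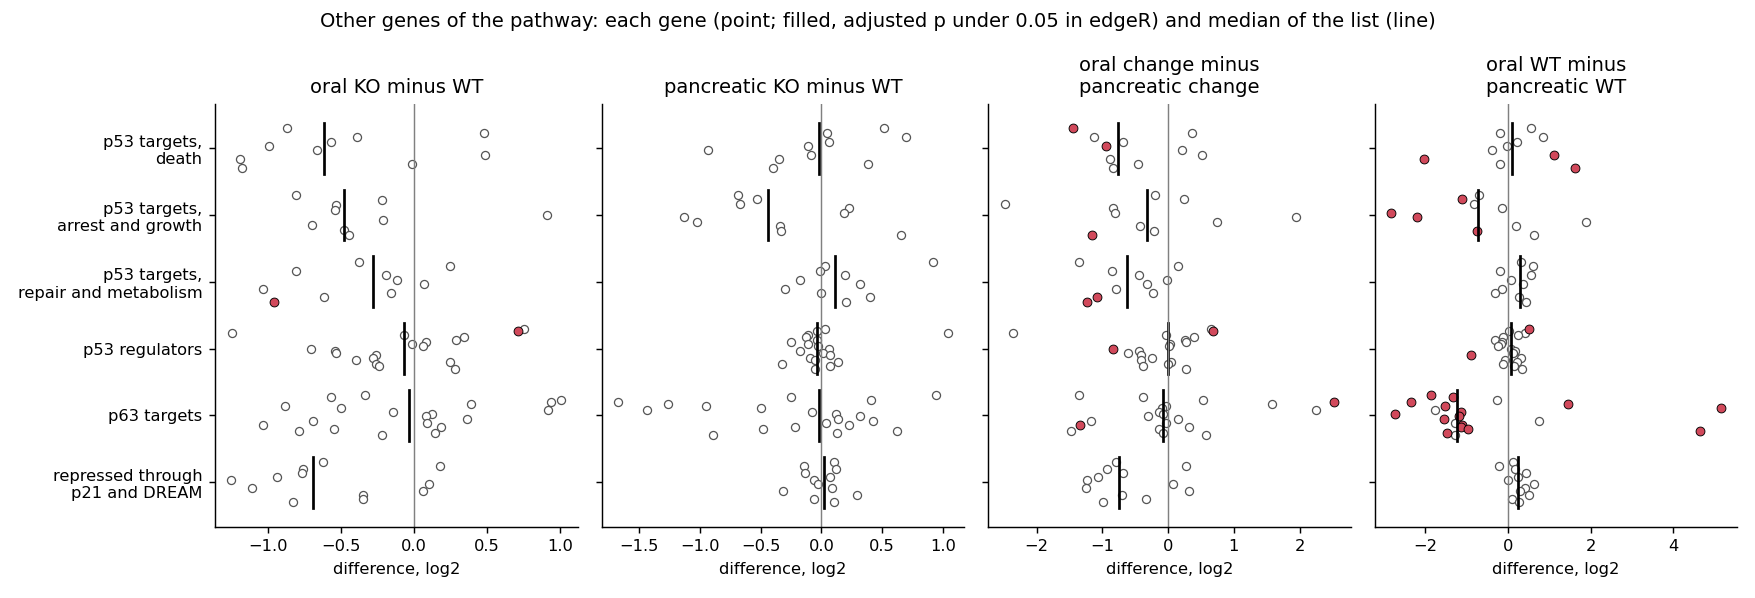
Log2 differences of the other pathway genes by list, 1 point per gene, in the same comparisons; filled points have an adjusted p under 0.05 in edgeR and lines mark the median of each list. The p63 targets hold 12 lower and 3 higher genes in the oral against the pancreatic WT tumors.

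The oral change differed from the pancreatic one for 5 of the 30 further p53 targets, all more negative in the oral mucosa, where 15.3% of all genes differed in either direction and 7.62% downward. They were Aen (-1.44, SE 0.33, adjusted p = 0.0186), an apoptosis-enhancing nuclease, Ei24 (-0.95, adjusted p = 0.0303), the RNA-binding Zmat3 (-1.16, adjusted p = 0.0317), Xpc (-1.24, adjusted p = 0.0142) and Tigar (-1.08, adjusted p = 0.0450), which restrains glycolysis. Their KO minus WT changes were -0.87, -0.99, -0.45, -0.96 and -0.62 in the oral mucosa, in the same order. In the pancreas they were 0.52, -0.11, 0.65, 0.20 and 0.40. Only the oral change of Xpc passed the test. Of the regulators Atr was higher (0.68, adjusted p = 0.0290) and the acetyltransferase Kat5 lower (-0.84, adjusted p = 0.0214). Their changes were 0.71 and -0.71 in the oral mucosa and -0.04 and 0.06 in the pancreas. Of the p63 targets Evpl, an envelope protein of differentiating keratinocytes, was higher (2.53, adjusted p = 0.0334) and Krt5, the basal keratin, lower (-1.33, adjusted p = 0.0234). The change of Evpl was 0.94 in the oral mucosa and -1.67 in the pancreas. That of Krt5 was -1.04 and 0.22, and none of these passed within a tissue. Krt5 measured 2179 to 3438 CPM in the oral WT and 1135 and 1274 CPM in the oral KO tumors, against 4121 to 6775 CPM in the pancreatic WT and 6392 to 6736 CPM in the pancreatic KO tumors. None of the 12 DREAM genes passed in edgeR and 4 in DESeq2 (23.8% of all genes), with 5 at an unadjusted p under 0.05, against 34.0% of all genes.

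Between the WT tissues 15 of the 20 p63 targets passed the test, where 23.7% of all genes did, with 12 lower and 3 higher in the oral mucosa and a median of -1.22 against 0.0046 over all genes, while the Trp63 difference was 0.10 and did not pass. Lower were, among others, Ripk4 (-0.96, adjusted p = 0.00401) and the hemidesmosome genes Itga6 (-2.72, adjusted p = 0.00405) and Col17a1 (-1.32, adjusted p = 0.00621). Itga6 measured 89.3 to 370 CPM in the oral WT and 1012 to 1467 CPM in the pancreatic WT tumors. Higher were the basement membrane gene Fras1 (5.15, adjusted p = 0.000140), the chromatin organizer Satb1 (4.64, adjusted p = 0.00167) and the growth factor receptor Fgfr2 (1.46, adjusted p = 0.0406). The epithelial marker sum was 615 to 1266 CPM in the oral WT and 2002 to 2482 CPM in the pancreatic WT tumors. Of its 8 genes 7 were lower in the oral mucosa, 6 of them past the test, where 11.6% of all genes were. For Trp63, the log2 ratio to the epithelial sum was -0.67 to 0.25 in the oral WT tumors. In the pancreatic WT tumors it was -1.85 to -1.28, without overlap, and this tissue difference was not tested. The part of these markers in the p63 targets was not tested.

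Of the 30 further p53 targets 2 were called higher and 5 lower in the oral WT tumors, where 12.1% and 11.6% of all genes were. Among them, 2 death genes were higher in the oral WT tumors, Pidd1 (1.11, adjusted p = 0.0133) and Trp53inp1 (1.63, adjusted p = 0.0152), and 1 was lower, Pmaip1, which encodes the BH3-only protein NOXA (-2.02, SE 0.30, adjusted p = 0.00250). Pmaip1 measured 12.2 to 27.0 CPM in the oral WT and 51.5 to 113 CPM in the pancreatic WT tumors, the opposite order to Bbc3. All 4 called arrest and growth genes were lower in the oral WT tumors, the kinases Plk2 (-2.82, adjusted p = 0.00104) and Plk3 (-2.20, adjusted p = 0.0143), the stress gene Gadd45a (-1.09, adjusted p = 0.00917) and Sesn2 (-0.74, adjusted p = 0.00505), and the list's median was -0.73. None of the 10 repair and metabolism genes passed in edgeR and 1 in DESeq2 (29.0% of all genes), with 3 at an unadjusted p under 0.05. Of the 19 regulators Atm was higher (0.52, adjusted p = 0.0430) and Ppp1r13l, an inhibitor of p53, lower (-0.89, adjusted p = 0.00640). Neither edgeR nor DESeq2 called any of the 12 DREAM genes (0 in each). At an unadjusted p under 0.05 in edgeR stood 2, against 36.8% of all genes, and the list's median was 0.26.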

How the data were processed

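Total RNA of 13 tumors was depleted of ribosomal RNA and sequenced with a stranded kit. The authors trimmed reads with Trim Galore 0.6.10, quantified them with kallisto 0.50.0 on GENCODE M23 (GRCm38) and deposited estimated counts per gene without normalization. Counts were rounded, and symbols, lengths and positions came from GENCODE M21. Each comparison was fitted with edgeR 4.0.16 in R 4.3.3 (TMM, robust quasi-likelihood, at least 10 counts in at least 2 tumors, Benjamini-Hochberg over all genes tested). CPM used TMM factors over the 13 tumors. Standard errors are the log2 fold change over the root of F. Likeness used log2(CPM + 0.5) of genes with a mean CPM of at least 1. Marker ratios had exact permutation tests, adjusted over 4. No 2 tumors of the same group were duplicates, and pairs across groups were not compared. Steps were tested on simulated data, with 100 genes changed by 1 and 100 changed by 2 in each comparison. Adjusted p-values depend on how many genes change. Recovery can therefore differ in the data, where 13.8% of all genes tested passed in the oral mucosa. Of 100 genes changed by 1 on the log2 scale, the fit recovered 1 in the oral mucosa and 25 in the pancreas. It recovered 0 for the difference between tissues and 15 between the WT tissues. Of 100 genes changed by 2, it recovered 29, 78, 27 and 71 in the same order. A difference that did not pass is therefore not shown to be absent.

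Named were all 10 genes, from each list and comparison up to 4 genes up and 4 down with the smallest adjusted p, and the 5 genes most like Trp63 and Cdkn1a. One gene that this rule names is not reported here. Members and lists were chosen with earlier results of these data known. Alternatives were other scaling, filters and dispersions, DESeq2 1.42.0 with and without apeglm 1.24.0, coding genes alone, thinning, 1 fit of all tumors, a replicate block, and leaving out each tumor. Promoters came from RefSeq (GRCm38.p6), outside exons of coding genes where shown.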

Additional observations from a re-analysis of the deposited data

Results flagged for a closer look

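Bbc3 in oral WT tumor 3, at 19.0 CPM, stood apart from the other 3 oral WT tumors, which lay between 8.18 and 9.74 CPM. The gap took 0.856 of the group's range, above Dixon's 95% critical value for 4 samples. In all, 20 groups of 4 tumors were examined, and chance sets apart about 1 in 20 of them.

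The KO minus WT change differed between the oral mucosa and the pancreas for Trp53 (-1.21 on the log2 scale), Mdm4 (0.61) and Bbc3 (-1.68), each in the test of the interaction over all 13 tumors. Skeletal muscle markers summed to between 2837 and 5130 CPM in the pair of oral KO tumors, against at most 12.1 CPM in the pancreas, and moved with these differences. Their part in them was not tested.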

How the results depend on the processing

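Over the alternatives that kept every tumor, 89 of 100 values of the 10 genes in the oral mucosa, 97 of 100 in the pancreas, 71 of 80 for the difference between tissues and 81 of 90 between the WT tissues kept their direction and their side of the threshold. The values that did not follow, and the cause was not tested unless named.

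In the oral mucosa the number of genes at an adjusted p under 0.05 went from 2 to 1 without a count filter, to 0 with protein-coding genes alone or a replicate block, and to 4 in 1 fit of all 13 tumors, with 0 to 3 when 1 tumor was left out. The number of DEGs went from 0 to 1 in DESeq2, in DESeq2 with apeglm and in 1 fit of all tumors, with 0 to 1 when 1 tumor was left out. The Cdkn1a difference became 0.34 under the block and 0.038 with protein-coding genes alone. In the pancreas 1 gene passed in DESeq2 and in DESeq2 with apeglm, and the Mdm4 difference became -0.0012 under the block. For the difference between tissues the DEGs went from 2 to 1 with at least 10 counts in every tumor, with a block, with protein-coding genes alone and with thinned counts (1 to 2 when 1 tumor was left out), and the genes at an adjusted p under 0.05 from 3 to 1 with a block (1 to 3). Trp63 there became 0.060 with at least 10 counts in every tumor, 0.079 with protein-coding genes alone and 0.014 with thinned counts. Between the WT tissues a block left 1 DEG of 2 and 1 of 4 genes at an adjusted p under 0.05, and leaving out 1 tumor gave 1 to 4 and 1 to 5. With the squamous list in place of the epithelial markers, the relative difference of Trp63 became -0.13 in the oral mucosa and 0.27 in the pancreas and that of Perp -0.0036 in the oral mucosa and -0.035 in the pancreas.

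Leaving out 1 tumor at a time also turned uncalled differences. The range was -0.87 to 0.0011 for Trp63, -0.58 to 0.20 for Cdkn1a and -0.86 to 0.11 for Perp in the oral mucosa, and -0.061 to 0.17 for Mdm2, -0.014 to 0.10 for Mdm4 and -0.17 to 0.023 for Bax in the pancreas. For the difference between tissues it was -0.65 to 0.23 for Trp63, -0.25 to 0.52 for Cdkn1a and -0.31 to 0.65 for Perp, and between the WT tissues -0.037 to 0.25 for Bax. Trp63 relative to the epithelial markers ranged from -0.76 to 1.08 in the oral mucosa and from -0.14 to 0.044 in the pancreas.

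The sources used here do not say that tumors of the same number were paired. Correlations of the deviations of same-numbered tumors were -0.08 and -0.04 in the oral mucosa, 0.32, -0.02 and -0.07 in the pancreas and -0.07 to 0.03 between the WT tissues. Under the replicate block the oral calls of Trp53 (adjusted p = 0.160) and Mdm4 (0.169) were lost, as were the differences between tissues of Mdm4 (0.0579) and Bbc3 (0.113) and the WT differences of Mdm2 (0.0551), Bbc3 (0.103) and Perp (0.0635), all in edgeR. Over all genes, the number at an adjusted p under 0.05 went from 3080 in the oral mucosa to 65 under the replicate block, 27 with protein-coding genes alone, 5178 in DESeq2 and 7554 in 1 fit of all tumors. In the pancreas it went from 174 to 730 under the block, 12 with protein-coding genes alone, 1711 in DESeq2, 293 without a count filter, 87 with at least 10 counts in every tumor and 98 in 1 fit. For the difference between tissues it went from 3960 to 1629, 1096 and 6142 in the first 3 of these and to 2359 with thinned counts. With 2 oral KO tumors, the exact tests of the oral ratios could not go below 0.0667. Oral KO tumor 1, the smallest library, had 57 counts of Bbc3, and its counting error limits that value.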
